A study of Mus with 15 samples.

Results

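The mitochondrial genome of the mouse holds 37 genes, and 15 of them had a row in the RNA-seq values of every mouse. These were the 13 protein-coding genes and the 2 rRNA genes, while the 22 tRNA genes had no row and are not analysed here. The rows were chosen by Ensembl transcript identifier, from ENSMUST00000082388 (mt-Rnr1) to ENSMUST00000082421 (mt-Cytb), together with ENSMUST00000084013 (mt-Nd4l). They are 15 of the 108027 Ensembl transcripts that were quantified in all mice. The rule uses identifiers and no level, and the set itself was picked with earlier results of these data known.

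Abdominal aorta was taken from 15 male wild-type C57BL/6 mice, 8 to 10 weeks old, after 14 days of treatment, with 5 mice in each of 3 groups. The Control group received saline by osmotic pump. The AngII group was infused with angiotensin II, the vasoconstrictor peptide of the renin-angiotensin system, at 500 ng/kg/min. The AngII + QDG group received the same infusion and 1.145 g/kg of Qingda granule (QDG, a granule made from medicinal herbs) each day by gavage, while the other mice were given water. In a bulk sample, fewer cells of a type cannot be told apart from less RNA per cell.

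Mitochondrial DNA is a small circle that each mitochondrion carries in many copies. Both of its strands are read as long RNAs, which are cut apart at the tRNAs into rRNAs and mRNAs. The 13 proteins are core subunits of oxidative phosphorylation: 7 belong to complex I (NADH dehydrogenase), 1 to complex III, 3 to complex IV (cytochrome c oxidase) and 2 to ATP synthase. All the other subunits come from the nucleus, and complex II has no mitochondrially encoded part. In the aorta these RNAs come from smooth muscle and from every other cell type that was dissected with it, among which fat and striated muscle are rich in mitochondria.

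On the GRCm38.p6 map of RefSeq the 15 genes follow each other closely, and each mRNA gene has no intron. Their order is mt-Rnr1 (MT:70-1024), mt-Rnr2 (MT:1094-2675), mt-Nd1 (MT:2751-3707), mt-Nd2 (MT:3914-4951), mt-Co1 (MT:5328-6872), mt-Co2 (MT:7013-7696), mt-Atp8 (MT:7766-7969), mt-Atp6 (MT:7927-8607) and mt-Co3 (MT:8607-9390). Then come mt-Nd3 (MT:9459-9806), mt-Nd4l (MT:9877-10173), mt-Nd4 (MT:10167-11544), mt-Nd5 (MT:11742-13565), mt-Nd6 (MT:13552-14070) and mt-Cytb (MT:14145-15288). mt-Atp8 and mt-Atp6 overlap by 43 bases, mt-Nd5 and mt-Nd6 by 14, and mt-Nd4l and mt-Nd4 by 7. mt-Nd6 is read from the other strand than the remaining mRNAs, so reads of mt-Nd6 and of RNA from the opposite strand cannot be told apart without strand. Whether strand was used in counting is not given in the sources used here.

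Levels are given in FPKM (fragment counts divided by transcript length and by the mapped fragments of the library), so different genes are compared per length. Summed FPKM was between 454587 and 547311 per mouse, and absolute depth is unknown. Quantification used a list of 126719 transcripts for Control and AngII mice and another of 125443 for AngII + QDG mice, so the list and QDG treatment cannot be told apart in any comparison with the AngII + QDG group. Nothing in the files links a transcript to a gene symbol. Markers of smooth muscle, fat, striated muscle and blood were therefore not measured here, and the labelled tissue was not checked against them.

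mt-Co1, the catalytic subunit of complex IV, was the highest of all transcripts in 14 mice and the 5th highest in AngII + QDG mouse 3984. Its FPKM was 11987, 15697, 16265, 17230 and 23007 in the Control mice. It was 12278, 14438, 16594, 17899 and 18839 in the AngII mice. In the AngII + QDG mice it was 4650, 10935, 15781, 19778 and 20775. The groups overlapped, and the AngII + QDG mice were spread more widely than the others, with the lowest value of all and 2 of the 3 highest.

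mt-Co2, which carries the copper site that takes electrons from cytochrome c, was between 4903 and 10513 FPKM over all mice. Its FPKM was 6045, 6799, 6892, 9695 and 10513 in Control mice. It was 4903, 6762, 7786, 7905 and 8347 in AngII mice and 5384, 6904, 7135, 8137 and 8254 in AngII + QDG mice. Again the groups overlapped, and the 2 highest mice were Controls.

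The 2 rRNAs form the mitochondrial ribosome, and their level here is what was left after rRNA had been removed from the libraries. The labels and the study's methods name different depletion kits, and the methods add a selection of poly(A)-tailed RNA. Their part in the levels of the rRNAs and of mt-Nd6 was not tested. mt-Rnr2 had a median of 3257 FPKM in Control mice (2017 to 4626), 2994 in AngII mice (1887 to 4156) and 3088 in AngII + QDG mice (2002 to 3237). In the same order, the median of mt-Rnr1 was 1636 (784 to 2952), 1657 (913 to 2288) and 1414 FPKM (868 to 1447). mt-Nd3, a small complex I subunit, had medians of 1127 (937 to 1931), 1112 (816 to 1289) and 1270 FPKM (817 to 1434). In all 3 genes the ranges of the groups overlapped, and the lowest mouse of each group was Control 3971, AngII 4048 and AngII + QDG 3984, as it was in mt-Co2.

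**Figure D1:**
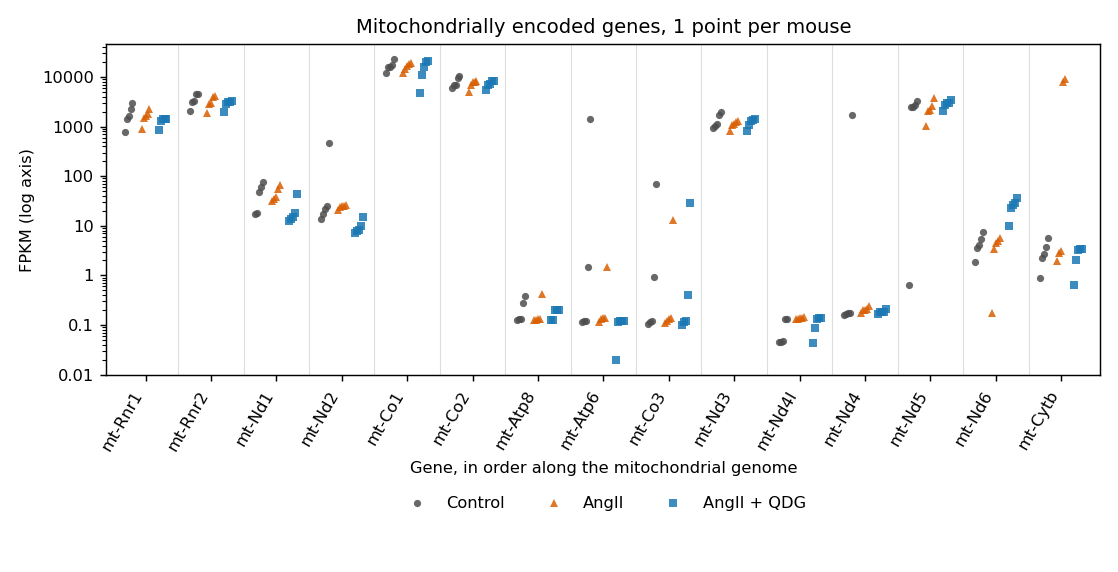
FPKM of the 15 mitochondrially encoded genes on a log axis, in their order along the genome, with 1 point per mouse (circles Control, triangles AngII, squares AngII + QDG). 5 genes are over 100 FPKM in every mouse, 5 are over 100 FPKM in some mice only, and 5 reach 100 FPKM in no mouse, although the genes lie next to each other.

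These 5 genes, mt-Rnr1, mt-Rnr2, mt-Co1, mt-Co2 and mt-Nd3, were the members over 100 FPKM in every mouse. Across the 15 mice, the SD of the log2 level was 0.29 for mt-Co2, 0.35 for mt-Nd3, 0.40 for mt-Rnr2, 0.53 for mt-Rnr1 and 0.55 for mt-Co1. The SD of the log2 ratio of mt-Co2 to mt-Nd3 was 0.14 and that of mt-Rnr2 to mt-Co2 was 0.17, smaller than the SD of either gene alone. mt-Rnr2, mt-Co2 and mt-Nd3 thus kept more even proportions than levels. Pearson's r of log2(FPKM + 1) over 15 mice, given as a description, was 0.96 for mt-Rnr1 with mt-Rnr2, 0.92 for mt-Co2 with mt-Nd3 and 0.92 for mt-Rnr2 with mt-Co2. All of these values come from the same libraries and share their scaling.

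mt-Co1 went with mt-Co2 less closely (r = 0.58). The FPKM ratio of mt-Co1 to mt-Co2 was over 2 in 12 mice, with a highest value of 2.69. It was 1.53 in AngII + QDG mouse 3983, 1.24 in Control mouse 3994 and 0.864 in AngII + QDG mouse 3984. The group means of the ratio were 2.19 ± 0.567 (SD, n = 5) in Control, 2.26 ± 0.160 (SD, n = 5) in AngII and 1.93 ± 0.712 (SD, n = 5) in AngII + QDG mice. The largest gap between these means is smaller than the SD of the Control and of the AngII + QDG mice but larger than that of the AngII mice. mt-Co1 and mt-Co2 are neighbours and are read as part of the same long RNA.

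**Figure D2:**
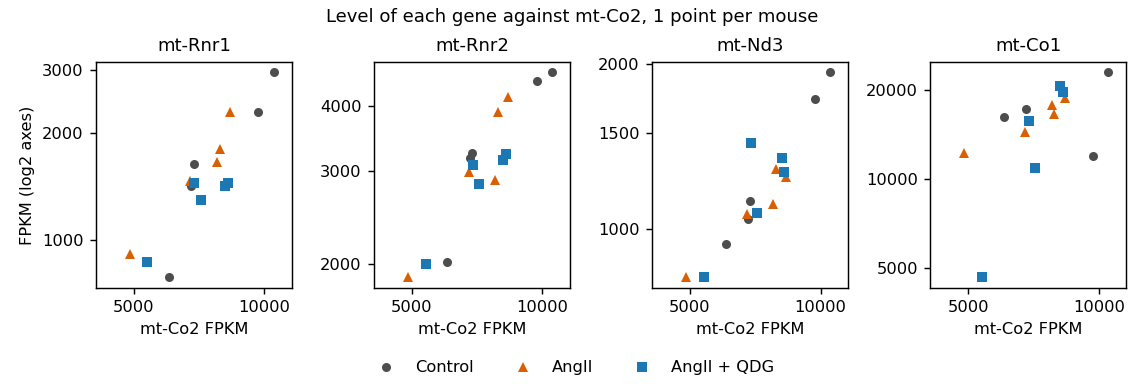
FPKM of mt-Rnr1, mt-Rnr2, mt-Nd3 and mt-Co1 (vertical) against mt-Co2 (horizontal), on log2 axes, with 1 point per mouse (circles Control, triangles AngII, squares AngII + QDG). mt-Rnr2 and mt-Nd3 follow mt-Co2 over all groups. mt-Co1 stands low in AngII + QDG mice 3984 (4650 FPKM) and 3983 (10935 FPKM) and in Control mouse 3994 (11987 FPKM).

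Several genes between these were near 0 although their neighbours were high. mt-Atp8, an accessory subunit of ATP synthase, was between 0.126 and 0.428 FPKM in all mice. mt-Nd4l, a membrane subunit of complex I, was between 0.0434 and 0.147. Neither gene reached 1 FPKM in any mouse. Both are read on the same long RNA as mt-Co2 and mt-Nd3, whose lowest value in any mouse was 816 FPKM.

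mt-Cytb, the only mitochondrially encoded subunit of complex III, was 0.896, 2.29, 2.75, 3.79 and 5.55 FPKM in the Control mice. In the AngII group it was 1.95, 2.88 and 3.12 FPKM in 3 mice, 8049 in mouse 3988 and 8949 in mouse 3989. In the AngII + QDG mice it was 0.652, 2.05, 3.19, 3.33 and 3.42. There was no mouse between 5.55 and 8049 FPKM, and the 3 other AngII mice lay within the range of the Control mice.

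mt-Nd4, a proton-pumping subunit of complex I, showed the same kind of step in another mouse. It was 1706 FPKM in Control mouse 3996 and between 0.158 and 0.237 in the other 14 mice. mt-Atp6, the ATP synthase subunit that lines the proton channel, was 1395 FPKM in Control mouse 4000 and between 0.0193 and 1.49 in the other 14. mt-Nd5, a further proton-pumping subunit of complex I, did the reverse, at 0.654 FPKM in Control mouse 4000 and between 1035 and 3786 in the other 14.

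Control mouse 4000 also held the highest mt-Nd2 (465 FPKM, others 7.24 to 26.5) and the highest mt-Co3 (68.5 FPKM). mt-Co3, the remaining complex IV subunit, was 0.943 FPKM or less in 12 mice and 12.9 and 28.5 in AngII mouse 4048 and AngII + QDG mouse 3983. The steps to 465 FPKM or more, and the drop of mt-Nd5, were all in Control or AngII mice, and no AngII + QDG mouse held one of that size. Control mouse 4000 held 4 of the stepping genes. The steps were looked for after the values were seen.

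All 126704 transcripts outside the 15 genes were searched in the same Control and AngII mice. A change counted if it was at least 5-fold, from or to 100 FPKM or more. Of these transcripts, 356 were at 100 FPKM or more in every mouse searched, but a counted change need not be among them. In AngII mice 3988 and 3989, with high mt-Cytb, 0 were lower and 0 higher than in all the other mice, where a change had to hold in both mice. In Control mouse 3996, with high mt-Nd4, 1 was lower and 2 were higher. In Control mouse 4000, 3 were lower and 10 were higher. Wide ranges also occurred outside the mitochondrial genome, since 9 of the 61 other Ensembl transcripts of both lists that reached 1000 FPKM in some mouse (14.8%) had a highest value at least 100-fold over the lowest. Among the 15 genes, 4 of the 9 that reached that level did so (44.4%). The cause of the steps was not tested.

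The share of all summed FPKM that came from the 15 genes was 5.83% to 8.81% in the Control group, with a mean of 6.90% ± 1.13 (SD, n = 5). It was 4.59% to 8.13% in the AngII group, with a mean of 6.80% ± 1.39 (SD, n = 5). In the AngII + QDG group it was 3.62% to 7.55%, with a mean of 5.94% ± 1.60 (SD, n = 5). The mean share was 0.103 percentage points lower in AngII than in Control mice (difference -0.103) and differed by -0.857 percentage points between AngII + QDG and AngII mice. Between AngII + QDG and Control mice it differed by -0.960 percentage points. All 3 differences were smaller than the SD of any of the groups, the ranges overlapped, and no p is given for a score over chosen genes. Single mice moved these differences by more than 1.5 times. AngII minus Control turned to 0.449 without AngII mouse 4048 and to 0.375 without Control mouse 4000, and was 0.0193 over the 13 mRNAs. Over the 5 genes above 100 FPKM in every mouse, a set chosen after the values were seen, AngII minus Control was -0.611. AngII + QDG minus AngII was -0.276 without AngII + QDG mouse 3984, -0.523 without AngII mouse 3986 and -1.41 without AngII mouse 4048. AngII + QDG minus Control was -0.379 without AngII + QDG mouse 3984 and -0.482 without Control mouse 4000.

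mt-Co1 alone made up 28.3% to 56.7% of the FPKM of the 15 genes, and complex IV 57.4% to 77.8%. mt-Cytb made up 22.4% in AngII mouse 3988 and 21.0% in mouse 3989, against at most 0.0194% in each Control mouse. Over the 5 genes above 100 FPKM in every mouse, which leaves the stepping genes out, the share was 6.29% ± 1.22 (SD, n = 5) in Control, 5.68% ± 1.17 (SD, n = 5) in AngII and 5.35% ± 1.58 (SD, n = 5) in AngII + QDG mice. Multiplied by RefSeq gene length, the FPKM of all 15 genes correspond to 2.01% to 5.51% of the mapped fragments, an estimate that rests on the authors' length and total matching these.

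**Figure D3:**
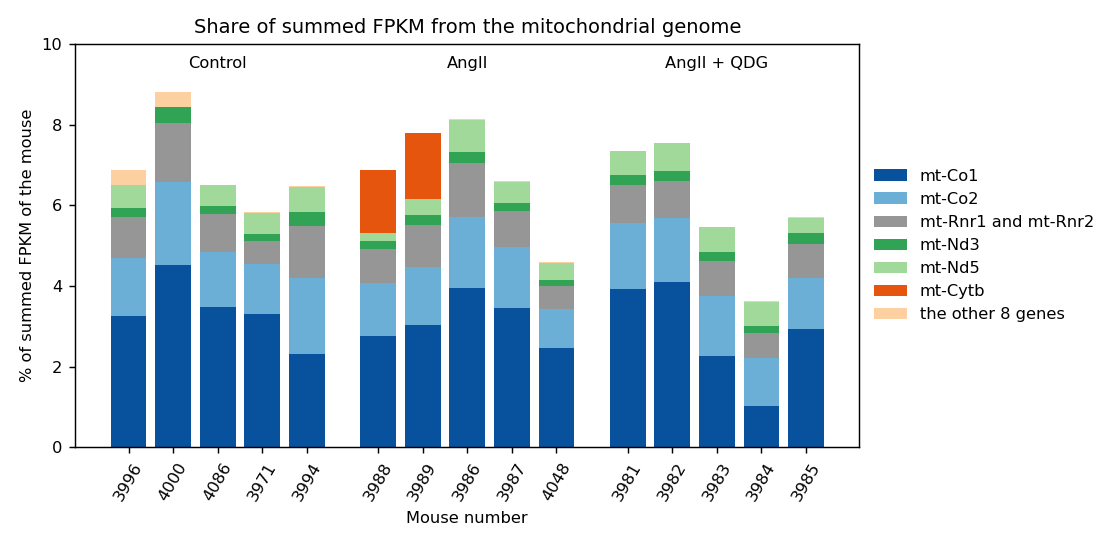
Share of the summed FPKM of each mouse (vertical, in percent) that came from mitochondrially encoded genes, stacked by gene, with 1 bar per mouse and the groups side by side. mt-Co1 is the largest block in every mouse but AngII + QDG mouse 3984, and the mt-Cytb block is visible only in AngII mice 3988 and 3989.

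Between the AngII and Control groups, which asks what the infusion changed, no mitochondrially encoded gene was called. Calls were made with limma on log2(FPKM + 1), where p before adjustment was below 0.05 and the groups differed at least 2-fold (differentially expressed transcripts, DETs). 10 of the 15 genes passed the filter of 1 FPKM in at least 5 of the 10 mice, 0 of them were DETs, and 0 had an unadjusted p below 0.05 or an adjusted p below 0.05. Over all 27327 transcripts tested, 1.5% were DETs, 0.64% upward and 0.856% downward, and 0.00732% had an adjusted p below 0.05. The median log2 difference of the 10 genes was -0.11, beside 0.02 over all transcripts.

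For the steadily high genes the intervals of AngII vs. Control were narrow. The log2 difference was -0.06 for mt-Co1 (95% interval -0.58 to 0.46), -0.15 for mt-Co2 (-0.67 to 0.36), -0.25 for mt-Nd3 (-0.77 to 0.27), -0.14 for mt-Rnr2 (-0.78 to 0.50) and -0.09 for mt-Rnr1 (-0.90 to 0.72). A 2-fold change of mt-Co1, mt-Co2, mt-Nd3 or either rRNA lies outside these intervals. With 1 mouse left out, the differences of mt-Co1 (-0.17 to 0.06), mt-Rnr2 (-0.33 to 0.03) and mt-Rnr1 (-0.35 to 0.12) took either sign. Those of mt-Co2 (-0.24 to -0.02) and mt-Nd3 (-0.37 to -0.11) stayed negative.

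For the stepping genes the intervals were wide. The log2 difference of mt-Cytb was 4.43 (95% interval -1.03 to 9.88, limma adjusted p = 0.995), which rests on mice 3988 and 3989. That of mt-Nd5 was 1.78 (-2.49 to 6.06), and it was -0.36 without Control mouse 4000. mt-Nd2 had a log2 difference of -0.57 (-2.40 to 1.27), and 0.35 without Control mouse 4000.

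Between the AngII + QDG and AngII groups, which asks what QDG changed under the infusion, 3 of 10 tested genes were DETs. mt-Nd6 was higher, and mt-Nd2 and mt-Nd1 were lower. All 3 belong to complex I, as do 5 of the 10 tested genes, and mt-Nd3 and mt-Nd5 of that complex were not DETs. Over all 21081 transcripts tested, 3.53% were DETs, 2.03% upward and 1.5% downward, and 1.73% had an adjusted p below 0.05, 1.02% upward and 0.707% downward. The 3 genes were at most 74.96 FPKM, apart from mt-Nd2 in Control mouse 4000, while mt-Nd3 of the same complex was at least 816.

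mt-Nd6, a membrane subunit of complex I, was 10.1, 23.1, 26.5, 28.3 and 36.2 FPKM in the AngII + QDG mice. It was 0.174, 3.42, 4.56, 5.01 and 5.55 in the AngII mice and 1.82, 3.52, 4.16, 5.51 and 7.55 in the Control mice. Every AngII + QDG mouse was above every mouse of the other groups, and the AngII and Control ranges overlapped. The group means were 24.8 ± 9.53 (SD, n = 5), 3.74 ± 2.14 (SD, n = 5) and 4.51 ± 2.15 (SD, n = 5).

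The log2 difference of mt-Nd6 was 2.56 (standard error 0.49, limma adjusted p = 0.0259) against AngII mice. Against Control mice it was 2.22 (standard error 0.36, limma adjusted p = 0.00983), and both comparisons share the AngII + QDG mice. mt-Nd6 stayed a DET against AngII mice in each fit that tested it, while its limma adjusted p was between 0.0126 and 0.0897 when 1 mouse was left out. That p was over 0.05 without AngII mouse 3986 or 3987, without AngII + QDG mouse 3981, 3982, 3983 or 3985, with a pseudocount of 0.1 (adjusted p = 0.129) and with no filter (adjusted p = 0.0814).

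Relative to mt-Co2, mt-Nd6 was 0.00188 to 0.00438 in AngII + QDG mice, 2.58e-05 to 0.00113 in AngII mice and 0.000302 to 0.000811 in Control mice. The AngII + QDG mice were thus above the others in this ratio too. Relative to mt-Nd5 they were 0.00377 to 0.0136, above the AngII mice (0.000168 to 0.00272) and the other 4 Control mice (0.000719 to 0.00220) but below Control mouse 4000 (11.5), where mt-Nd5 was 0.654 FPKM. mt-Nd5, which overlaps mt-Nd6 on the opposite strand, had a log2 difference of 0.38 against AngII mice (95% interval -0.32 to 1.08). All mice with the higher mt-Nd6 were quantified on the other transcript list.

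mt-Nd2, a membrane subunit of complex I, was 7.24, 7.88, 8.09, 9.82 and 15.3 FPKM in AngII + QDG mice. In AngII mice it was 21.0, 24.0, 24.5, 24.8 and 26.5, and in Control mice 13.5, 17.1, 21.4, 24.9 and 465. The AngII + QDG and AngII mice did not overlap, while the highest AngII + QDG mouse, 3985, lay above the lowest Control mouse. The log2 difference was -1.28 against AngII mice (standard error 0.18, limma adjusted p = 0.00404). With 1 mouse left out, mt-Nd2 stayed a DET and its limma adjusted p was between 0.000415 and 0.0200. It was no longer a DET when all 15 mice, with Control mouse 4000 among them, shared 1 fit (limma adjusted p = 0.745). Against Control mice the log2 difference was -1.85 (standard error 0.84, limma adjusted p = 0.560), and -0.94 without Control mouse 4000.

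mt-Nd1, a subunit near the ubiquinone site of complex I, was 12.2, 13.8, 14.7, 18.2 and 43.3 FPKM in AngII + QDG mice. It was 31.4, 34.4, 37.9, 54.8 and 65.5 in AngII mice and 17.1, 17.7, 47.8, 61.7 and 74.96 in Control mice. AngII + QDG mouse 3985 lay among the AngII mice, and the other 4 lay below them. The log2 difference was -1.20 against AngII mice (standard error 0.34, limma adjusted p = 0.185). mt-Nd1 was a DET by its p before adjustment. After adjustment over all transcripts tested, its p in the fit of all 10 mice was above the limit used for DETs. Without AngII + QDG mouse 3985 the difference was -1.50 (limma adjusted p = 0.0152). Against Control mice it was -0.98 (limma adjusted p = 0.629).

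**Figure D4:**
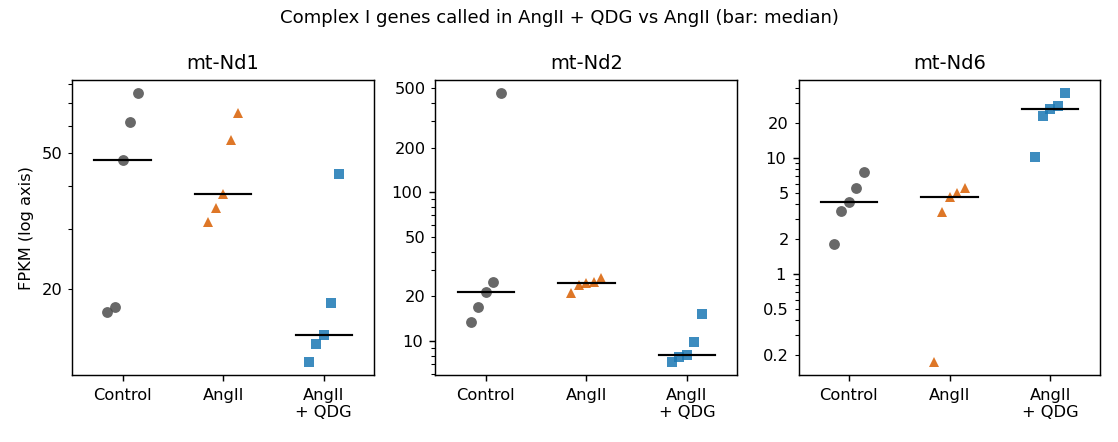
FPKM of mt-Nd1, mt-Nd2 and mt-Nd6 on log axes by group, with 1 point per mouse and a bar at the group median. All 5 AngII + QDG mice are above the other mice in mt-Nd6 (10.1 FPKM or more against at most 7.55), and in mt-Nd2 they are below the AngII mice (15.3 FPKM or less against at least 21.0).

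The other 7 tested genes were not DETs between the AngII + QDG and AngII groups. The log2 difference was 0.01 for mt-Co2 (95% interval -0.47 to 0.49), 0.09 for mt-Nd3 (-0.34 to 0.52), -0.11 for mt-Rnr2 (-0.65 to 0.43) and -0.29 for mt-Rnr1 (-0.85 to 0.27). With 1 mouse left out, that of mt-Rnr2 was -0.28 to 0.01 and that of mt-Rnr1 -0.48 to -0.15. For mt-Co1 the log2 difference was -0.32 (-1.21 to 0.58), an interval that holds a 2-fold decrease, and 0.04 without AngII + QDG mouse 3984. For mt-Cytb it was -4.60 (-10.01 to 0.81), from the same AngII mice 3988 and 3989. The median over the 10 genes was -0.20, beside -0.0032 over all transcripts.

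Between the AngII + QDG and Control groups, 1 of 10 tested genes, mt-Nd6, was a DET, and it was the only one with an adjusted p below 0.05. Over all 21250 transcripts tested, 3.64% were DETs, 2.08% upward and 1.56% downward, and 1.81% had an adjusted p below 0.05, 1.04% upward and 0.772% downward. The median log2 difference of the 10 genes was -0.21, beside 0.02 over all transcripts. The 95% intervals of mt-Co1 (log2 difference -0.38, and -0.01 without AngII + QDG mouse 3984), mt-Co2 (-0.14), mt-Nd3 (-0.16), mt-Rnr1 (-0.38) and mt-Rnr2 (-0.25) all held 0. The log2 difference of mt-Nd5 was 2.16, and 0.02 without Control mouse 4000.

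**Figure D5:**
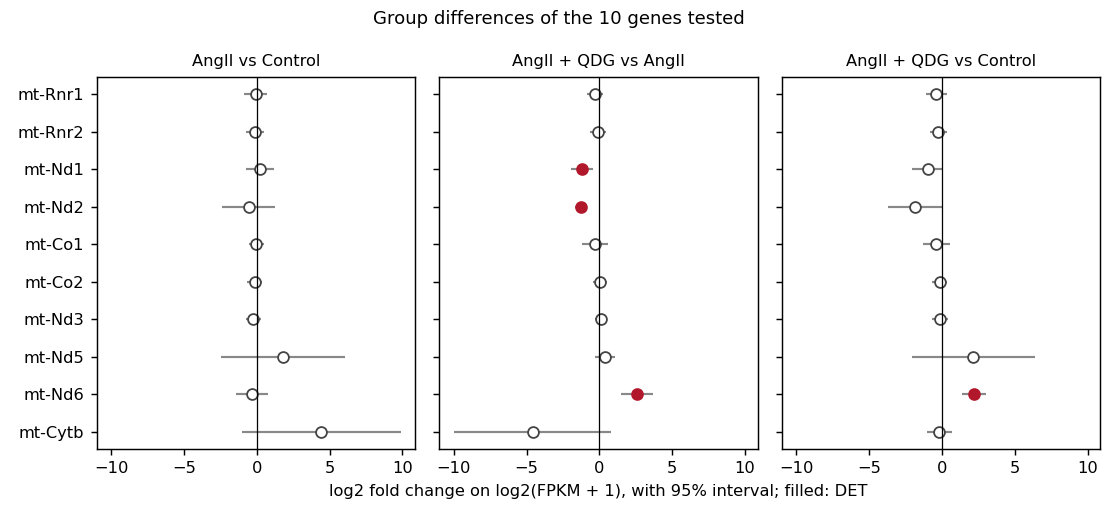
log2 fold change on the log2(FPKM + 1) scale with its 95% interval for the 10 genes tested, in the 3 comparisons, with filled points for DETs. No gene is filled in AngII vs. Control, mt-Nd1, mt-Nd2 and mt-Nd6 are filled in AngII + QDG vs. AngII, and mt-Nd6 alone is filled in AngII + QDG vs. Control.

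The nuclear genome carries copies of mitochondrial DNA, and reads of near-identical copies can be divided between them. Outside the 15 genes, the transcripts most like the summed FPKM of the 13 mRNAs over 15 mice, among 11938 at 1 FPKM or more in every mouse, were ENSMUST00000114783 (r = 0.86), ENSMUST00000222874 (r = 0.84) and ENSMUST00000024946 (r = 0.83). That sum moves with the stepping genes. A search with mt-Co2, added after the values were seen, gave ENSMUST00000188231 (r = 1.00). It was 4964 to 10617 FPKM and between 0.975 and 1.01 times mt-Co2 in every mouse. Next came ENSMUST00000190277 (r = 0.98), at 4267 to 8618 FPKM and 0.760 to 0.895 times mt-Co2. No name or position is given for either, so whether they are such copies was not tested. Neither counts toward the shares given above for the 15 genes.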

How the data were processed

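RNA-seq values of 15 abdominal aortas were used, with groups and mouse numbers from the sample labels. Per the paper, the authors ran NGSQC on the reads, HISAT2 for alignment to mm10, and StringTie for assembly and abundance. Deposited values are FPKM per transcript, scaled by the authors for length and mapped fragments, so no count test was used. The labels name an rRNA depletion kit. The unit was inferred from the values, which are not whole and sum to a different total in each mouse.

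Groups were compared pairwise, each pair in a model of its 10 mice alone (limma 3.58.1 under R 4.3.3, empirical Bayes with a mean trend). The response was log2(FPKM + 1) of transcripts with at least 1 FPKM in at least 5 mice. p-values were adjusted by Benjamini-Hochberg over all transcripts tested. Where AngII + QDG mice took part, only Ensembl transcripts found on both lists were tested. DETs follow the limits of the study (fold change of 2, p below 0.05). The fit was tested on simulated data. The labels name no batches. Precision rests on 5 mice per group, since absolute depth is unknown.

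The genes and lists were chosen with earlier results of these data known. All 15 genes are named, as the rule for named genes asks. Names of the 15 identifiers came with the definition of the gene set, and positions from RefSeq. Lists of nuclear subunits of oxidative phosphorylation, of mitochondrial transcription and biogenesis genes, and of cell type markers had been drawn up but were not used here, since nothing paired transcripts with symbols. Alternatives were another pseudocount, other filters, 2 scalings, 1 fit of all mice, other shares and leaving out each mouse. Figures were drawn with matplotlib 3.10.9.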

Additional observations from a re-analysis of the deposited data

Results flagged for a closer look

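The 15 genes and the share in each of 3 groups gave 48 sets of 5 values, which were searched for a single mouse standing apart. The search found 12. A rate of 1 in 20 would give 2.4, but that rate holds for independent, normally distributed values. These are raw FPKM of genes measured in the same mice, several of them near 0, so no excess over chance can be read from the 2 numbers. Control mouse 4000 held 4 of them, with mt-Nd2 at 465 FPKM (others 13.5 to 24.9), mt-Atp6 at 1395 (others 0.114 to 1.49), mt-Co3 at 68.5 (others 0.104 to 0.943) and mt-Nd5 at 0.654 (others 2507 to 3290). Control mouse 3996 had mt-Nd4 at 1706 FPKM (others 0.158 to 0.173).

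In the AngII group, mouse 3986 had mt-Atp8 at 0.428 FPKM (others 0.127 to 0.133) and mt-Atp6 at 1.45 (others 0.115 to 0.140), and mouse 4048 had mt-Co3 at 12.9 (others 0.111 to 0.139). In the AngII + QDG group, mouse 3984 had mt-Rnr1 at 868 FPKM (others 1293 to 1447), mouse 3985 had mt-Nd1 at 43.3 (others 12.2 to 18.2), mouse 3981 had mt-Atp6 at 0.0193 (others 0.114 to 0.122) and mouse 3983 had mt-Co3 at 28.5 (others 0.102 to 0.402). The 2 AngII mice with high mt-Cytb are not found by this search, which looks for a single mouse.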

How the results depend on the processing

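No called difference changed its sign, but calls were lost and gained. In AngII vs. Control, 0 genes were DETs under all 6 other fits and 0 to 1 when 1 mouse was left out (0 to 1 with an unadjusted p below 0.05), where the 1 was mt-Cytb without AngII mouse 3986. Adjusted calls stayed at 0. In AngII + QDG vs. AngII, 3 to 4 genes were DETs with 1 mouse left out, and the genes with an adjusted p below 0.05 numbered 1 with a pseudocount of 0.1, with no filter, with 1 FPKM in every mouse and with all 15 mice in 1 fit, and 1 to 2 with 1 mouse left out. The added DET was mt-Cytb, without AngII mouse 3986, 3987 or 4048. With all 15 mice in 1 fit the 3 DETs were mt-Nd1, mt-Nd6 and mt-Cytb, as mt-Nd2 was lost, and with 1 FPKM in every mouse there were 2, as mt-Nd6 was not tested.

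In AngII + QDG vs. Control, the 1 DET became 2 with a pseudocount of 0.1, with 1 FPKM in every mouse, with scaling to transcripts outside the mitochondrial genome and with all 15 mice in 1 fit, and 3 with scaling by the 75th percentile. With 1 mouse left out there were 1 to 3. The added genes were mt-Nd2, without Control mouse 3996 or 3994, and mt-Nd1, without Control mouse 4000 or 3994 or AngII + QDG mouse 3985. Their adjusted p stayed above 0.05. The difference in share moved by less than the spread between mice under every other share, including the share over 5 genes chosen after the values were seen, and with 1 mouse left out it was -0.44 to 0.45, -1.41 to -0.28 and -1.36 to -0.38 percentage points. Causes of these changes were not tested. No paired analysis was possible because no mouse number occurs in more than 1 group.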
